A study of Homo sapiens with 2 samples.

Results

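CHD4 occupancy at pigment and melanosome genes was described for *TYR*, *TYRP1*, *DCT*, *PMEL*, *MLANA*, *OCA2*, *SLC45A2*, *SLC24A5*, *TRPM1* and *MC1R*. A CHD4 peak was assigned to a gene when it overlapped the GENCODE gene record or the 10000 bp before the record's start by at least 1 bp, and this stretch is called the window of the gene. The rule returned 48 of the 60126 peaks in the deposited list, and each of the 10 genes held at least 1. The list derives from 1 CHD4 ChIP-seq library of 501Mel, an established human melanoma cell line, accompanied by 1 input library of the same fixed chromatin. The cells were grown in RPMI 1640 with foetal calf serum, and neither a treatment nor a genetic change is given for either library. Without replicates no spread between libraries can be given, and all comparisons are descriptions within this single list. The list holds no read counts and no expression values, so neither the depth behind a peak nor the pigment cell identity of the line could be checked from it.

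CHD4 is the ATP-driven remodelling subunit of the NuRD complex, which slides nucleosomes and carries histone deacetylases. Pigment cells make melanin inside melanosomes: TYR catalyses the rate-limiting oxidation of tyrosine, TYRP1 and DCT act on later intermediates, PMEL builds the fibrils on which melanin is laid down, and MLANA is a melanosomal membrane protein needed for PMEL maturation. OCA2, SLC45A2 and SLC24A5 set the ionic conditions of the organelle, TRPM1 is a cation channel whose gene hosts the microRNA MIR211, and MC1R is the melanocortin receptor that raises cyclic AMP. Many of these genes are known targets of MITF, which binds E-box sequences and, at pigment gene promoters, a longer form called the M-box.

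The sequences below show the M-box core, TCATGTG on either strand, in capitals in the 250 bases before the canonical start of the 4 genes that carried it there. The canonical start is the first base of the GENCODE canonical transcript. They are given to show where the core lay. In none of them was it under a peak, and *TYR*, *TYRP1* and *DCT* had a peak within 1000 bp of the start. How often such a core lies under a peak over all promoters is not given here, so this is a description only. Sequences are from GRCh37, the build that hg19 names, and are written 5′ to 3′ in the direction of transcription.
TYR upstream, chr11:88910793-88911042 (+ strand): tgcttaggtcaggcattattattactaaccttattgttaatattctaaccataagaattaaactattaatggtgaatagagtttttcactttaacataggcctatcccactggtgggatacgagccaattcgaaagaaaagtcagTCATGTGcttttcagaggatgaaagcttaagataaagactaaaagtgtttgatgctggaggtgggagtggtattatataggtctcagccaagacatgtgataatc
TYRP1 upstream, chr9:12693135-12693384 (+ strand): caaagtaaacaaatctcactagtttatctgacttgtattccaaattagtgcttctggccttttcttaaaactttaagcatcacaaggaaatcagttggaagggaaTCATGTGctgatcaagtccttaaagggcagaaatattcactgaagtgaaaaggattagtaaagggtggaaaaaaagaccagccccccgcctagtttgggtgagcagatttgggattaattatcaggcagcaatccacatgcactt
DCT upstream, chr13:95131937-95132186 (- strand): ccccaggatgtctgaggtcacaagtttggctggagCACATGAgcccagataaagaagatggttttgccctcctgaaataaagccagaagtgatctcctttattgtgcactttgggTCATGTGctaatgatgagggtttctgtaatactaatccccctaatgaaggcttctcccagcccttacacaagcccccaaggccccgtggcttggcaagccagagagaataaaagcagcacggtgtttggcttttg
SLC24A5 upstream, chr15:48412937-48413186 (+ strand): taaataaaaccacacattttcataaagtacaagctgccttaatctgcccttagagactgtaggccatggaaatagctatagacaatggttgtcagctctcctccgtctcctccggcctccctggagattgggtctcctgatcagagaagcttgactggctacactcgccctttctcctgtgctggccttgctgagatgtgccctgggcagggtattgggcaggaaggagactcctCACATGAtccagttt

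The core began 105 bp before the start of *TYR*, 145 bp before that of *TYRP1*, 215 and 135 bp before that of *DCT* and 15 bp before that of *SLC24A5*. Within 250 bp before to 50 bp after the canonical start, 4 of 10 pigment genes held the core (40%, Wilson 95% interval 16.8 to 68.7%), as did 2.11% of 19881 protein-coding promoters of the same length. The M-box is known from pigment gene promoters, so this difference was to be foreseen and is no independent finding. No base of the 4 printed stretches lay under a CHD4 peak. The 4 genes whose start base was itself under a peak, *OCA2*, *SLC45A2*, *TRPM1* and *MC1R*, held no core in this interval. That depends on the interval, since the start peaks of *SLC45A2* and *TRPM1* held cores farther before the start. The start peaks of *OCA2* and *MC1R* held none. The canonical start base was under a peak in only 12.2% of protein-coding genes. Uncovered stretches in 4 genes therefore do not set cores apart from peaks. Wilson intervals here and below cover counting error only, and neither genes nor the peaks of 1 gene are replicates.

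In the strongest pigment gene peak the same core recurred many times within a repeated sequence. The 300 bases around the centre of the *SLC45A2* start peak are given for that reason, in the direction of transcription, with each TCATGTG in capitals.
SLC45A2 peak centre, chr5:33985478-33985777 (- strand): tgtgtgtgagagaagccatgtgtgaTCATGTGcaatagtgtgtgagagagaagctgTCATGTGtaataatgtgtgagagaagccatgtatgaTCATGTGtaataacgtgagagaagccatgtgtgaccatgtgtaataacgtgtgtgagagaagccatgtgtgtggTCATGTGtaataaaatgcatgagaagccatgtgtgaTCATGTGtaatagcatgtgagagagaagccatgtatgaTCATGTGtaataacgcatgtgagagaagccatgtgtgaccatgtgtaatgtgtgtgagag

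This stretch lay before the transcribed part of *SLC45A2* and carried 6 cores. The whole peak carried 21, all on the strand of the gene, over 1104 bp (33985097 to 33986200), at a median spacing of 41 bp (31 to 205 bp). Only 4 peaks of the nuclear list, itself included, held at least as many, and no other pigment gene peak held more than 2. The letters between the cores recur as well, so the stretch reads as a tandem repeat, a short unit copied head to tail. The cores are therefore not separate occurrences, and whether the repeat affects mapping or the fold was not tested. An exact match is a description of these letters and not a binding site.

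Of the 10 pigment genes, 10 held a peak, against 63.2% of 20163 protein-coding genes under the same window rule. The windows summed to 899.681 kb, of which 7.16% lay under peaks, against 2.61% over the windows of all protein-coding genes. Peak density was 5.34 per 100 kb in the pigment gene windows and 2.96 per 100 kb over all protein-coding windows. Peak strength is given as the fold enrichment that the authors' peak caller computed against background, written as fold, and as the −log10 of the q value, which is larger for a more confident call. At a −log10 q of at least 2, 10 pigment genes kept a peak (48.2% of protein-coding genes), at 3 there were 8 (27.3%) and at 5 there were 2, *OCA2* and *SLC45A2* (5.46%). At a fold enrichment of at least 4, 3 remained, *DCT*, *OCA2* and *SLC45A2* (11.7%). At least 4 peaks were found in 7 of the 10 windows, against 19.2% of protein-coding genes. These shares of genes were not matched for window length, whose median was 42459 bp for the pigment genes and 37219 bp for all. Among genes with a window within 25% of that of each pigment gene, the share with a peak ran from 53.1% (*MC1R*) to 82.4% (*OCA2*).

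**Figure D1:**
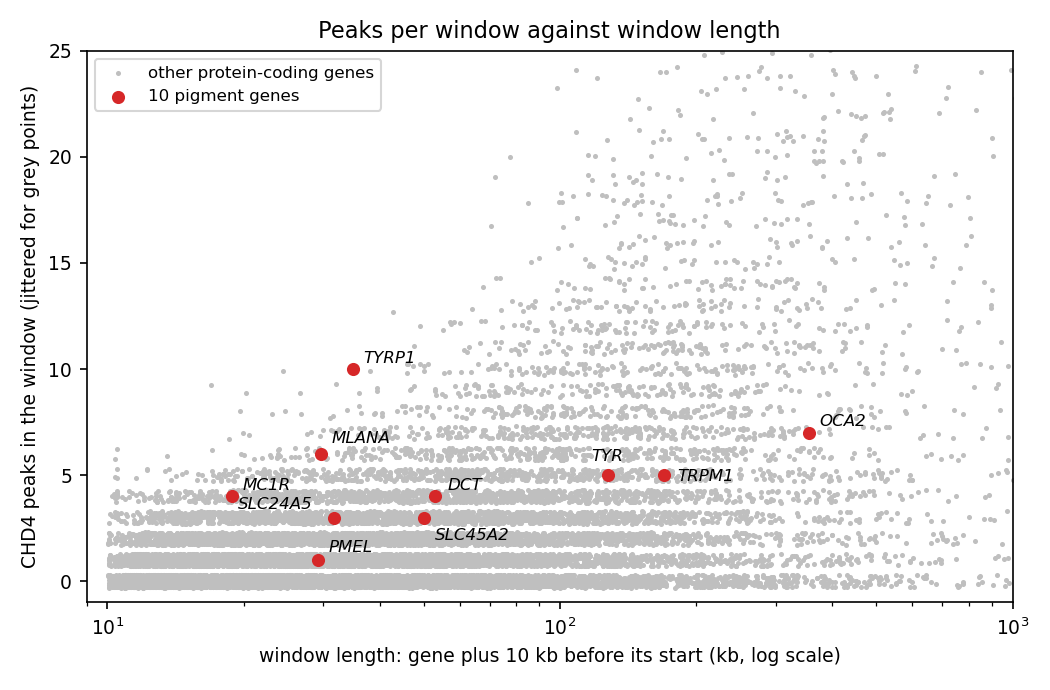
Number of CHD4 peaks in each window (vertical axis) against the length of the window (horizontal axis, kb, log scale), with the 10 pigment genes in red and other protein-coding genes as grey points shifted at random within their row. TYRP1, with 10 peaks in 34.847 kb, stands at the upper edge of the grey points, whereas PMEL, with 1, lies inside them; 170 genes lie outside the plotted range.

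*TYRP1* (ENSG00000107165, chr9:12685439-12710285, plus strand) had the most peaks, 10, and the largest covered share, 42.3% of its window. Only 2 of 3803 other protein-coding genes with a window within 25% of its length held at least as many (0.0526%), and by covered share the gene ranked 36 among all protein-coding genes. The 1000000 bp on either side had 1.42% of bases under peaks. Its canonical start lies 7946 bp inside the gene record, and 6 peaks preceded that start as a nearly unbroken block of 20369 bp, 81.3% of it under peaks and the largest gap 920 bp. The block held peaks of 5532 bp (fold 3.84, −log10 q 3.71), 568 bp (3.37, 2.27), 6093 bp (3.52, 2.97), 2896 bp (3.08, 1.79), 466 bp (3.29, 2.26) and 1006 bp (3.32, 2.43). The 4 peaks after the start were weaker than each peak of the block in fold and −log10 q: 581 bp over exon 2 and intron 2, 509 bp in intron 4, 332 bp in intron 6 and 151 bp in exon 8, with folds from 2.75 to 3.03. Joining peaks that lay within 1000 bp of each other reduced the 10 to 5. The last 3 also lay within *LURAP1L-AS1*, a long noncoding RNA gene on the opposite strand.

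*TYR* (ENSG00000077498, chr11:88911043-89028927, plus strand) had 5 peaks and 8.33% of its window covered. The 2 before the start, of 6729 bp (fold 3.55, −log10 q 2.82) and 2752 bp (3.72, 3.23), spanned 11180 bp with 84.8% under peaks and ended 265 bp before the first base of the gene. The 6729-bp peak was longer than 99.6% of the list. The others lay in intron 2 (1238 bp, fold 3.38) and intron 3 (844 bp, 3.22 and 540 bp, 2.97). By number, *TYR* was not set apart, since 30.0% of genes of like window length held at least as many peaks, whereas 8.82% were at least as covered. The surroundings had 2.34% of bases under peaks. None of the 5 peaks touched an exon of the canonical transcript, and none lay past 88980373. The pseudogene *TYRL* (chr11:49426643-49437341) holds a copy of exons 4 and 5 (from 89017941) that a read may also fit. Whether this affected the peaks called there was not tested.

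*DCT* (ENSG00000080166, chr13:95089065-95131936, minus strand) had 4 peaks and 6.62% of its window covered. A peak of 2676 bp (fold 3.92, −log10 q 3.76) ended 538 bp before the nearest annotated start, and a peak of 172 bp lay inside exon 1 (3.02, 1.74). The canonical start thus fell between peaks. The remaining peaks were 502 bp long, 6209 bp before the start (2.86, 1.48), and 151 bp long in intron 6. That last one had the highest fold of the gene, 4.02. No peak of the list was shorter, and 151 bp is also the length to which the authors' peak call extended reads. At least as many peaks were held by 17.5% of genes of like window length, and 1.39% of the surroundings lay under peaks.

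In the 3 enzyme genes the peaks before the start left the start base itself uncovered, as was also the case for *PMEL*, *MLANA* and *SLC24A5*. Cores of the M-box did lie inside those upstream peaks of *TYR* and *TYRP1*, and they are given here with 12 bases on either side, as read on the strand that carries TCATGTG.
TYR peak match, chr11:88903206-88903236 (- strand): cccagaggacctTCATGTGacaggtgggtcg
TYR peak match, chr11:88909175-88909205 (+ strand): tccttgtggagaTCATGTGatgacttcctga
TYRP1 peak match, chr9:12675982-12676012 (+ strand): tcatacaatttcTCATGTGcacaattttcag
TYRP1 peak match, chr9:12681976-12682006 (+ strand): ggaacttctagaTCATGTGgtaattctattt
TYRP1 peak match, chr9:12688933-12688963 (+ strand): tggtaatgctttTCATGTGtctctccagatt

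**Figure D2:**
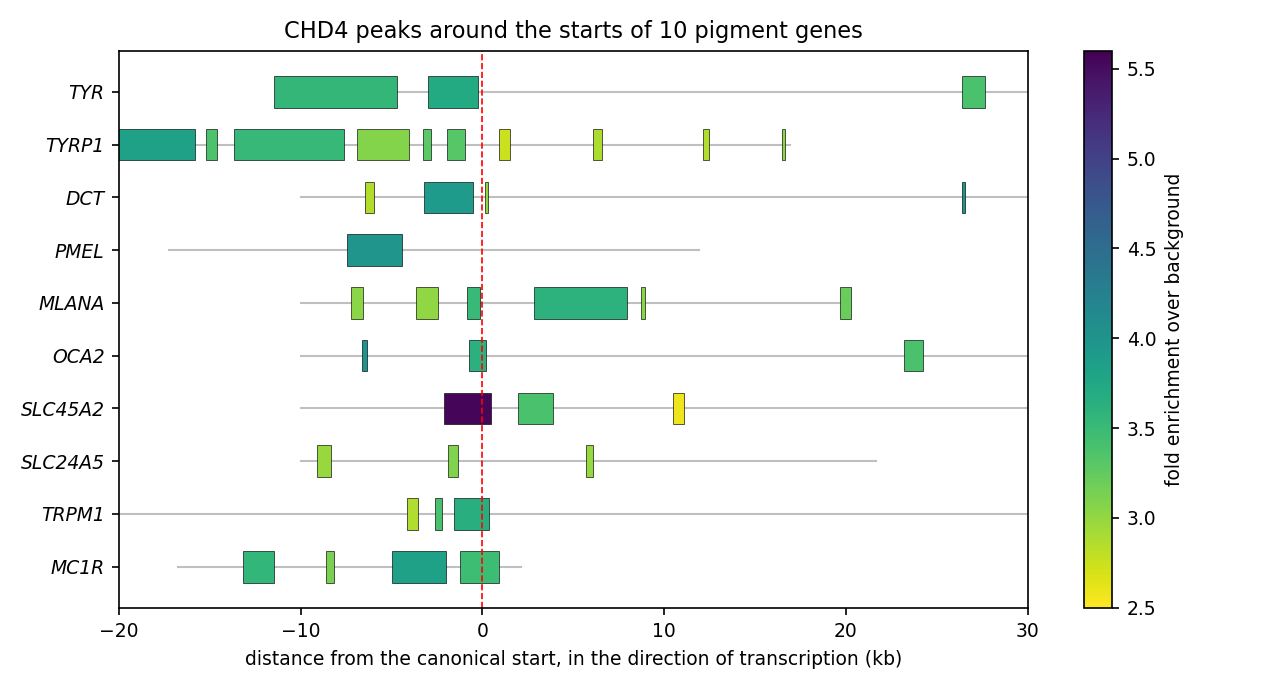
Position of CHD4 peaks (boxes, drawn to scale) relative to the canonical start (dashed line) in the direction of transcription, in kb, coloured by fold enrichment; the grey line is the window, and 8 peaks farther away are not shown. By length, though not by number for DCT, the boxes shown for TYR, TYRP1 and DCT sit mainly before the start. The darkest box covers the start of SLC45A2.

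*PMEL* (ENSG00000185664, chr12:56347889-56367101, minus strand) had the fewest peaks, 1. It was 3006 bp long (56364248 to 56367253, fold 3.99, −log10 q 3.66), stronger in fold than 94.3% of the list, and covered 10.3% of the window. It covered the start of the gene record but lay 4422 bp from the canonical start, which is 7275 bp further in. The same peak overlapped *CDK2*, a cell cycle kinase gene on the opposite strand, and lay in the window of *RAB5B*, a gene for an endosomal GTPase, so it cannot be assigned to *PMEL* alone. *PMEL* was the only pigment gene less dense in peaks than its surroundings (3.42 against 3.90 per 100 kb), and 62.1% of genes of like window length held at least as many.

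*MLANA* (ENSG00000120215, chr9:5890889-5910606, plus strand) had 6 peaks and 26.4% of its window covered, rank 199 by covered share. At least as many peaks were held by 1.77% of genes of like window length, and its surroundings had 1.92% of bases under peaks. A peak of 690 bp (fold 3.51, −log10 q 2.60) ended 153 bp before the start, and the longest, 5109 bp (3.61, 2.99), ran from intron 2 through exon 3 into intron 3. The other 4 had folds from 3.02 to 3.21. The whole gene lies within *KIAA2026*, transcribed from the opposite strand, so that all 6 peaks were shared with that gene's window and 2 also with that of *ERMP1*.

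*SLC45A2* (ENSG00000164175, chr5:33944728-33984798, minus strand) had 3 peaks, and the one over its start was the strongest of all 48. It was 2622 bp long (33984317 to 33986938), covered 482 bp of exon 1 and 2140 bp before it, and had a fold of 5.56 and a −log10 q of 11.1. Only 105 peaks of the whole list, itself included, had a fold as high. It also overlapped the end of *AMACR*, the gene of a racemase of branched fatty acids. The other peaks were 1912 bp over introns 1 and 2 with exon 2 (3.38, 3.1) and 643 bp in intron 2 (2.58, 1.28), the lowest fold and q of the set. The gene therefore held both extremes in strength. The window was 10.3% covered, and the surroundings 4.09%. Among genes of like window length, 27.5% held at least as many peaks and 6.12% were at least as covered.

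*OCA2* (ENSG00000104044, chr15:28000021-28344461, minus strand) had 7 peaks in the longest window, 354.441 kb, and the smallest covered share, 1.58%. Its surroundings were close to that, at 1.09%, and 43.3% of genes of like window length held at least as many peaks. A peak of 971 bp covered the start (fold 3.63, −log10 q 2.86). The highest of the gene lay deep within it, in intron 18 (28177828 to 28179340, 1513 bp, 4.71, 6.09), 165.877 kb past the start, and 568 peaks of the list had a fold at least as high. It was flanked by a peak in the same intron (3.05, 1.68) and by one in intron 19 (3.99, 3.79). A peak of 290 bp lay 6504 bp before the start (3.99, 3.62), and the others were in introns 2 (3.39) and 3 (2.93).

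The *OCA2* start differed from those of the enzyme genes in base composition, and its 250 bases before the canonical start, all under the peak, are given for that contrast, with no letter in capitals.
OCA2 upstream, chr15:28344462-28344711 (- strand): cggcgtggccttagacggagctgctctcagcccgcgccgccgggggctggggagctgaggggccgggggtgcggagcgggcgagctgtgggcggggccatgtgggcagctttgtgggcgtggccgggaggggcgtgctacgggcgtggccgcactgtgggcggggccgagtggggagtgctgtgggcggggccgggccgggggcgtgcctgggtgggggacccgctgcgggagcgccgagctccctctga

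The 300 bp around this start held 32 CpG sites at 75.7% GC, against 2 CpG sites at each of the *TYR*, *TYRP1* and *DCT* starts, whose GC was 37, 39 and 49%. At most 5 CpG sites were present in 7 of the 10 pigment gene promoters, and in 3616 of 19881 protein-coding promoters. Among all protein-coding promoters with so few, 9.79% had a peak within 1000 bp of the canonical start, whereas 5 of those 7 pigment genes did. The share was 24.5% at 6 to 15 CpG sites, where both pigment genes (*MLANA* and *MC1R*) had a peak, and 44.5% above 15, where *OCA2* had one.

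*SLC24A5* (ENSG00000188467, chr15:48413187-48434869, plus strand) had 3 peaks, with folds close to or below the list median of 3.09. Their lengths lay on either side of the list median of 613 bp. They were 765 bp (fold 2.98, −log10 q 1.55) and 520 bp (3.09, 2.01) before the start and 403 bp (2.99, 1.60) in intron 2. None came within 1000 bp of the canonical start, the nearest lying 1368 bp away. The window was 5.33% covered and the surroundings 4.12%, and 20.1% of genes of like window length held at least as many peaks. *MYEF2*, on the opposite strand, overlaps the far end of the gene, where no peak was found.

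*TRPM1* (ENSG00000134160, chr15:31293268-31453363, minus strand) had 5 peaks, all at or before the canonical start, which lies 59435 bp inside the record. The strongest q belonged to the peak over that start (31393579 to 31395505, 1927 bp, fold 3.64, −log10 q 3.0). Short peaks were centred 2445 bp (386 bp long, 3.41) and 3865 bp (611 bp long, 2.87) before the start, and the other two lay 34.145 kb (3.65, 2.92) and 56.193 kb (3.14, 1.86) before the start, inside the record of the longer transcripts. No peak lay in the body of the canonical transcript past its first intron, where *MIR211* resides. The window was 2.91% covered and the surroundings 0.674%, the lowest of the 10. At least as many peaks were held by 38.3% of genes of like window length, and 31.0% were at least as covered.

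*MC1R* (ENSG00000258839, chr16:89978527-89987381, plus strand), which has 1 exon in the canonical transcript, had 4 peaks and 38.4% of its short window of 18.855 kb covered, rank 56 by covered share. A peak of 2136 bp covered the canonical start and 900 bp of the exon (fold 3.48, −log10 q 2.65). The peak before it, of 2960 bp, was the strongest (3.83, 3.55), and the other two had 1712 bp (3.56, 2.85) and 432 bp (3.12, 2.04). At least as many peaks were held by 4.83% of genes of like window length, and the surroundings had 2.77% of bases under peaks. All 4 were shared with other protein-coding windows, namely *TCF25*, *TUBB3*, a neuronal tubulin gene, and the record ENSG00000198211, which overlaps *MC1R*.

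**Figure D3:**
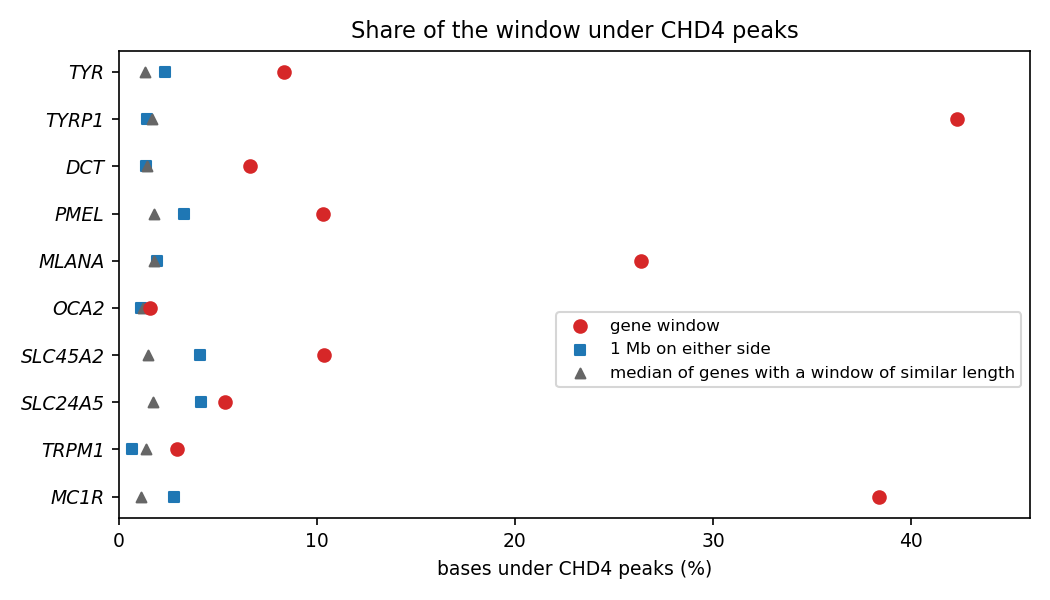
Share of bases under CHD4 peaks (%) in the window of each pigment gene (red circles), in the 1 Mb on either side (blue squares) and as the median over protein-coding genes of like window length (grey triangles). The red circle is the rightmost mark in all 10 rows, by the most for TYRP1 (42.3%) and MC1R (38.4%) and by the least for OCA2 (1.58%).

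The covered share was above that of the surroundings and above the median of genes of like window length for 10 of 10 pigment genes, and the number of peaks was above that median for 9. In all, 12 of the 48 peaks lay in the window of another protein-coding gene and 36 did not. When shared peaks were left out, 7 pigment genes kept a peak and *PMEL*, *MLANA* and *MC1R* had none. *SLC45A2* kept 2 but lost its start peak, the strongest of the 48, which lay in the window of *AMACR*. The share of protein-coding genes that keep a peak under this restriction is not given, so the 7 cannot be set against it.

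**Figure D4:**
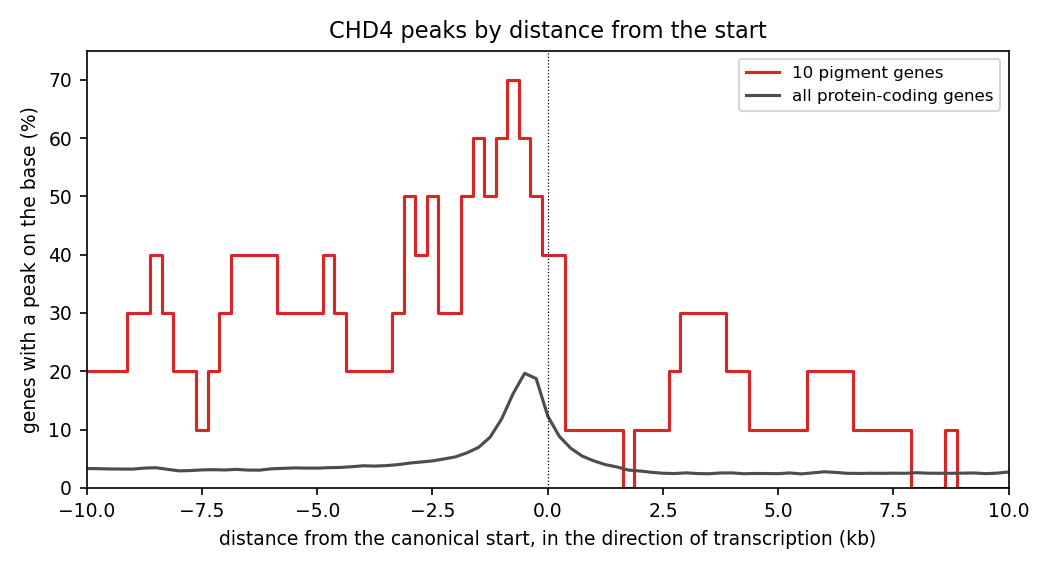
Share of genes (%) with a CHD4 peak on the base at each distance from the canonical start (kb, negative before the start), for the 10 pigment genes (red steps of 10%, since 1 gene is 10%) and all protein-coding genes (grey line). The red line is highest, at 70%, 0.75 kb before the start, and the grey line at 0.5 kb before it, at 19.7%.

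A peak lay within 1000 bp of an annotated start in 9 pigment genes (42.4% of protein-coding genes) and of the canonical start in 8, the exceptions being *PMEL* and *SLC24A5* (34.6%). The canonical start base was under a peak in 4 (12.2%). Placed relative to the canonical start, 28 peak centres lay before it and 20 after. At 750 bp before the start 7 of the 10 genes were under a peak, against 16.2% of protein-coding genes, and at 500 bp after it 1 was, against 6.79%. Of the 48 peaks, 24 lay wholly before the canonical start, 14 wholly within introns and 10 touched an exon of the canonical transcript.

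In strength the medians of the pigment gene peaks lay a little above those of the list. Their median fold was 3.34 (range 2.58 to 5.56), against 3.09 for all peaks. The 95% interval of the pigment gene median, 3.08 to 3.52 from the ranked folds, includes the list median. The median −log10 q of the pigment gene peaks was 2.34 against 1.97. They were also longer, with a median of 768 bp against 613 bp. A length of at least 2000 bp was reached by 11 of 48 (22.9%, Wilson 95% interval 13.3 to 36.5%), against 10.3% of all peaks. At least 5000 bp was reached by 4, against 1.03%, and these were the long upstream peaks of *TYR* and *TYRP1* and the intronic peak of *MLANA*. Apart from the start peak of *SLC45A2* and the intron 18 peak of *OCA2*, no pigment gene peak had a −log10 q of 5 or more (2.23% of all peaks).

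**Figure D5:**
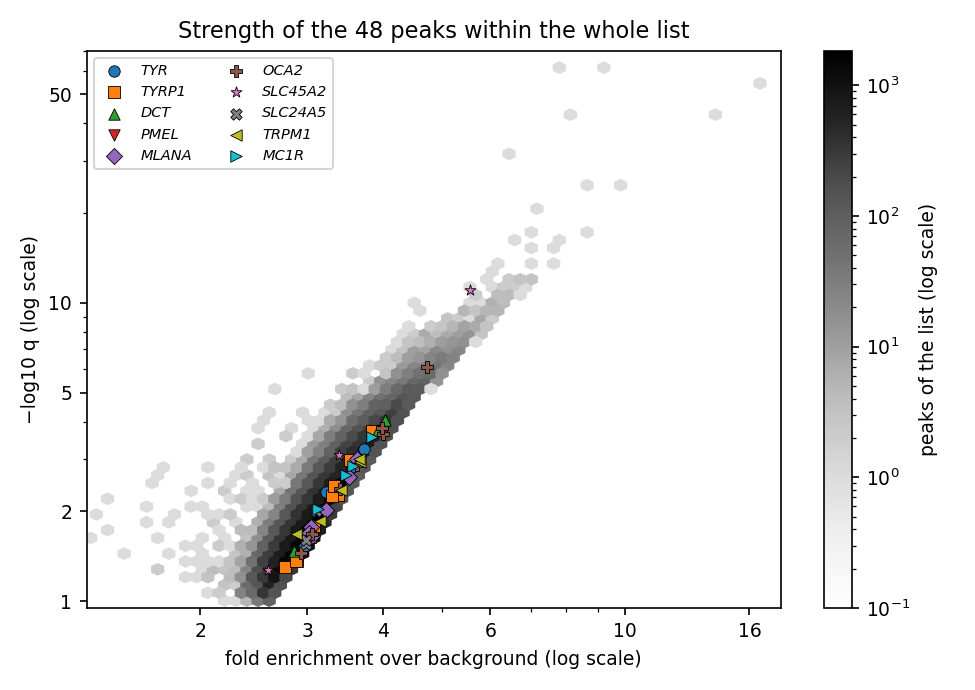
Fold enrichment (horizontal axis) and −log10 q (vertical axis), both on log scales, of the 48 pigment gene peaks (coloured symbols by gene) over all peaks of the list (grey, darker where more peaks fall). Most symbols lie in the dense part of the grey area around the median fold of 3.34, and the SLC45A2 start peak, at 5.56 and 11.1, stands apart from the others.

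Over whole peaks, the M-box core was present in 13 of 48 (27.1%, Wilson 95% interval 16.6 to 41.0%), against 17.1% of all peaks, and in 7 of the 10 genes, the exceptions being *PMEL*, *SLC24A5* and *MC1R*. Per kb, pigment gene peaks held 0.487 cores, but 0.193 without the *SLC45A2* start peak, against 0.229 in all peaks, so that the excess rested on that peak. In the 300 bp around the centre, which is the same length for every peak, 6 of 48 held the core (12.5%, interval 5.86 to 24.7%), against 6.83% of all peaks. The hexamer CACGTG was found around 0 of 48 centres (upper limit 7.41%), against 5.04%, but over whole peaks in 11 (22.9%, interval 13.3 to 36.5%), against 12.6%. The SOX-type hexamers ACAAAG or ACAATG, the kind recognised by SOX10, were present around 26 (54.2%, interval 40.3 to 67.4%), against 38.1%. Around the centres, 1 peak held an AP-1 sequence, TGACTCA or TGAGTCA (2.08%, against 6.73%), 2 held the octamer-type TGCAAAT (4.17%, against 5.71%) and 0 of 48 held the CTCF consensus (upper limit 7.41%, against 0.953%). Over whole peaks the order turned for AP-1, with 10 of 48 (20.8%, interval 11.7 to 34.3%) against 17.1%, and for the octamer type, with 12 (25%, interval 14.9 to 38.8%) against 15.7%. The SOX-type hexamers were then present in 36 (75%, interval 61.2 to 85.1%), against 60.4%, and the CTCF consensus again in 0 of 48 (upper limit 7.41%), against 1.52%. Whole peaks differ in length, and the pigment gene peaks were the longer ones by their median, as given above.

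In 2 pigment gene peaks the M-box core overlapped an AP-1 sequence, TGAGTCA, so that the letters read TGAGTCATGTG. An overlap of the core with TGACTCA or TGAGTCA was present in 0.353% of all peaks. These are the long upstream peak of *DCT* and the start peak of *TRPM1*, and both matches are given with the joined sequence in capitals.
DCT overlap, chr13:95134420-95134454 (+ strand): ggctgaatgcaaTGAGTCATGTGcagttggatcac
TRPM1 overlap, chr15:31394731-31394765 (+ strand): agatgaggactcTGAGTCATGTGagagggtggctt

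Among 64 other genes of pigmentation, 58 held a peak (90.6%), against the 63.2% of protein-coding genes, without matching for window length. Melanosome biogenesis and cargo sorting had 23 of 25, with 14 peaks each in *RAB38*, a small GTPase that sorts melanogenic enzymes, and the lysosomal trafficking gene *LYST*, and the highest fold in *AP3D1* (3.99). The *RAB38* window was 72.193 kb long and that of *LYST* 232.684 kb. At least as many peaks were held by 0.274% and 11.6% of genes of like window length, respectively. All 7 genes of melanosome transport had one, led by *SYTL2* with 21 peaks and a fold of up to 5.19. Of the channels, transporters and copper supply genes 7 of 8 did, with the most in the cystine transporter gene *SLC7A11* (13) and the highest fold in *SLC24A4* (4.75). Signalling genes had 10 of 12, the most in the endothelin receptor gene *EDNRB* (15) and the highest fold in *KITLG* (4.46). Transcription regulators had 11 of 12, with 43 peaks over 26.9% of the window of *MITF* and a fold of up to 5.19 in *PAX3*. The canonical start base was under a peak in 12 of the 64, against 12.2% of protein-coding genes.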

How the data were processed

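Single reads of CHD4 ChIP and input chromatin were mapped to hg19 by the authors, who kept reads with a unique best position and called broad peaks. The submitters' processing notes name bcl2fastq 2.17.1.14, Bowtie 1.0.0 and MACS2 2.1.1.20160309; the control of the call is not given in the sources used here. The deposited peak list holds the authors' score, their fold enrichment (a ratio over the background), and −log10 p and −log10 q values, which were used as given; the score was not used further. The list carries no depth.

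Peaks were set, in 1-based positions, against GRCh37 and the GENCODE v44 annotation lifted to it. Genes of like length had windows within 25%. Motifs were exact matches on either strand. The 10 genes and the lists were chosen with earlier results of these data known. Named genes were the 10, genes sharing their peaks or overlapping them, and in each list of other pigment genes the one with most peaks and the one of highest fold. Counting was tested on simulated data. Wilson intervals are at 95%. Alternatives covered windows, thresholds, shared and merged peaks. Scripts ran in Python 3.11.15 with pysam 0.24.0, pandas 2.3.3 and numpy 2.4.6, and used samtools 1.23.1, matplotlib 3.10.9 and scipy 1.17.1.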

Additional observations from a re-analysis of the deposited data

How the results depend on the processing

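No paired analysis was possible because the series holds 1 ChIP library and 1 input library, and no replicate could be left out. Of the alternative values for the main results, 32 stayed within 1.5 times the reported count or within the interval of the reported value, and 26 moved. The pigment gene peaks numbered 81 with 50000 bp before the start, 30, 12 and 2 at a −log10 q of at least 2, 3 and 5, and 3 at a fold of at least 4. At those 4 thresholds the peaks per 100 kb were 3.33, 1.33, 0.222 and 0.333, and the median fold was 3.56, 3.95, 5.13 and 4.71. The 3 q thresholds kept 62.5, 25 and 4.17% of the pigment gene peaks, against 48.5, 17.8 and 2.23% of all peaks. Pigment genes with a peak fell to 2 at a −log10 q of 5 and to 3 at a fold of 4, and other pigment genes to 31 (−log10 q of 3), 4 (5) and 9 (fold of 4). The share of protein-coding genes with a peak was 50.8% in the gene alone, 58.3% with 2000 bp, 75.3% with 50000 bp, 48.2, 27.3 and 5.46% at the 3 q thresholds, 11.7% at the fold threshold and 38.7% over all gene types. The peak list gives no read counts, so how far depth limits the weak peaks could not be read from it.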

Other observations

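The 10000-bp limit of the window cut through peaks of *TYR* and *TYRP1*, which reached past it, and left neighbouring peaks outside, some strong and some weak. The nearest peak beyond the edge of *SLC24A5* lay only 161 bp away (48399525 to 48403026), and its fold of 3.69 and −log10 q of 3.14 were above those of all 3 peaks inside, of which the closest to the edge had 2.98 and 1.55. Beyond *DCT* a peak followed after 1307 bp (fold 2.63, −log10 q 1.11), against 2.86 and 1.48 for the outermost peak inside. For *OCA2* the next peak lay 10201 bp beyond the edge (4.33, 4.85), and for *SLC45A2* it lay 14248 bp beyond (3.95, 5.01). For *TRPM1* it lay 108681 bp beyond (4.15, 4.18).

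Of the 64 other pigment genes, 6 had no peak in their window, *BLOC1S6*, *RAB32*, *TMEM163*, *EDN3*, *ADCY1* and *ALX4*; they are named because they are the exceptions, after their values were seen. *MFSD12*, a gene of cysteine import into melanosomes, and *SOX10*, a regulator of the melanocyte lineage, were also singled out after their values were seen, since 30.8 and 41.7% of their windows lay under peaks, shares near those of *MLANA* and *TYRP1*. *MFSD12* held 10 peaks in 46.03 kb and *SOX10* held 8 in 26.737 kb.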
